A study of Sus scrofa with 10 samples.

Results

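The 100 mRNAs described here were chosen by their measured levels in pig blood, as those that stood out most at 28 days of age (D28), out of 12338 mRNAs that could be ranked among the 12354 in the deposited table. Each mRNA was scored as log2 of its D28 mean plus 1, minus the highest such value among the other 4 ages, and the 100 highest scores were taken. The values that chose them are the measured levels themselves, so everything said of D28 against another age is a description of the selected mRNAs and carries no test. Of the 100, 71 have a gene symbol and 29 have an Ensembl identifier alone.

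The libraries came from the peripheral blood of 10 healthy female Qingyu pigs, with 1 library per pig, and total RNA was depleted of ribosomal RNA before sequencing. Each age had 2 pigs, and the ages were 0 days (D0, newborn), 7 days (D7, suckling), 28 days (D28, weaning), 180 days (D180, sexual maturity) and 2 years (Y2, adult). No pig was sampled at more than 1 age, no treatment is named in the labels, and n is 2 for every age mean below. The authors deposited FPKM, the fragments of a transcript scaled to transcript length and to the mapped reads of its library. In the text, a scaled FPKM is that value divided by a median-of-ratios factor of the library, which puts the typical mRNA at the same level in every library.

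Cytotoxic lymphocytes, which are natural killer (NK) cells and CD8 T cells, kill infected cells by releasing granules that hold the pore-forming protein perforin and proteases called granzymes. The transcription factor T-bet, encoded by TBX21, drives this programme, and cytokines such as interleukin 2, interleukin 12 and interferon gamma sustain or follow it. In blood, mature cytotoxic cells are marked by the receptors CX3CR1 and S1PR5, and pigs are known for a large share of gamma delta T cells. Many of the 100 mRNAs with a symbol belong to this programme. The role groups used below were made after the levels had been seen, and members outside the rule for named genes are named for those roles.

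The scaling factors ranged from 0.437 in a D0 library to 3.03 in a D180 library and were 1.00 and 0.971 at D28. All 12 measured mRNAs of an erythroid list, the hemoglobins and other red cell genes, were lower at D180 than at D28. Their summed level was 1055890 to 1103610 scaled FPKM at D0 and 37520.7 to 47505.3 at D180. The factors raise D0 values and lower D180 values, so they widen that difference, and these sums are not shares of a library. FPKM is a share of a library, so where red cell RNA takes less of it the other mRNAs take more, and the choice of scaling bears on every level below. Without the scaling, 62 of the 100 had their highest age mean at D28 and the other 38 had it at D180. Over the whole table, 321 mRNAs, or 2.60%, were highest at D28 in deposited FPKM, against 2663, or 21.6%, after scaling. In whole blood, a change in the number of cells of a type and a change in RNA per cell cannot be told apart.

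**Figure D1:**
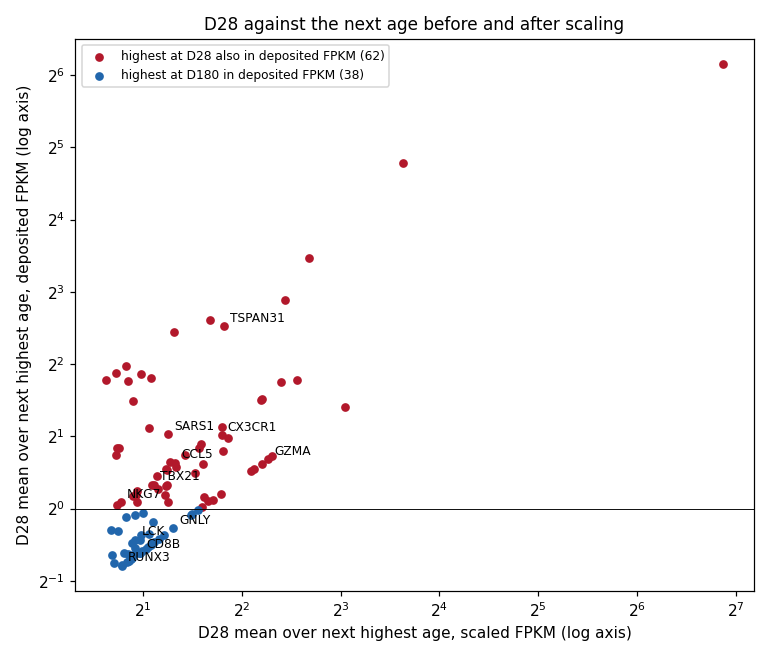
Each point is 1 of the 100 mRNAs, with the D28 mean divided by the next highest age mean in scaled FPKM on the horizontal axis and in deposited FPKM on the vertical axis, both on log axes. The 38 points under the line at 1 had a higher deposited FPKM at D180 than at D28, and TSPAN31 and GZMA are among the 62 above it.

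The scores ran from 2.26 down to 0.617 with a median of 0.843, against a median of -0.228 over all ranked mRNAs, of which 2657 scored above 0. The D28 mean exceeded the next highest age by a median of 2.16-fold, by at least 2-fold in 61 members and by at least 3-fold in 26. The last member inside the limit was RGCC, a regulator of the cell cycle, at 0.617, and the first mRNA outside, ENSSSCG00000015447, stood at 0.615. It was followed by RGS1, which dampens G protein signals, at 0.613, WARS1, the tryptophanyl-tRNA synthetase, at 0.606 and SH2D1A, a signalling adaptor of T and NK cells, at 0.601. The limit therefore cuts through a run of close values.

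In 94 of the 100 both D28 pigs lay above all of the other 8 libraries, a pattern that 9.41% of all mRNAs showed and that the selection largely sets. The 2 D28 pigs differed by less than 1.2-fold in 66 members and by more than 2-fold in 7. Among the exceptions SNORA57, listed under a small nucleolar RNA name, had 4.01 scaled FPKM in one D28 pig and 0.136 in the other. HYAL3, a hyaluronidase, had 7.71 and 0.10. For both, 1 library set the place among the 100, and neither is described further.

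**Figure D2:**
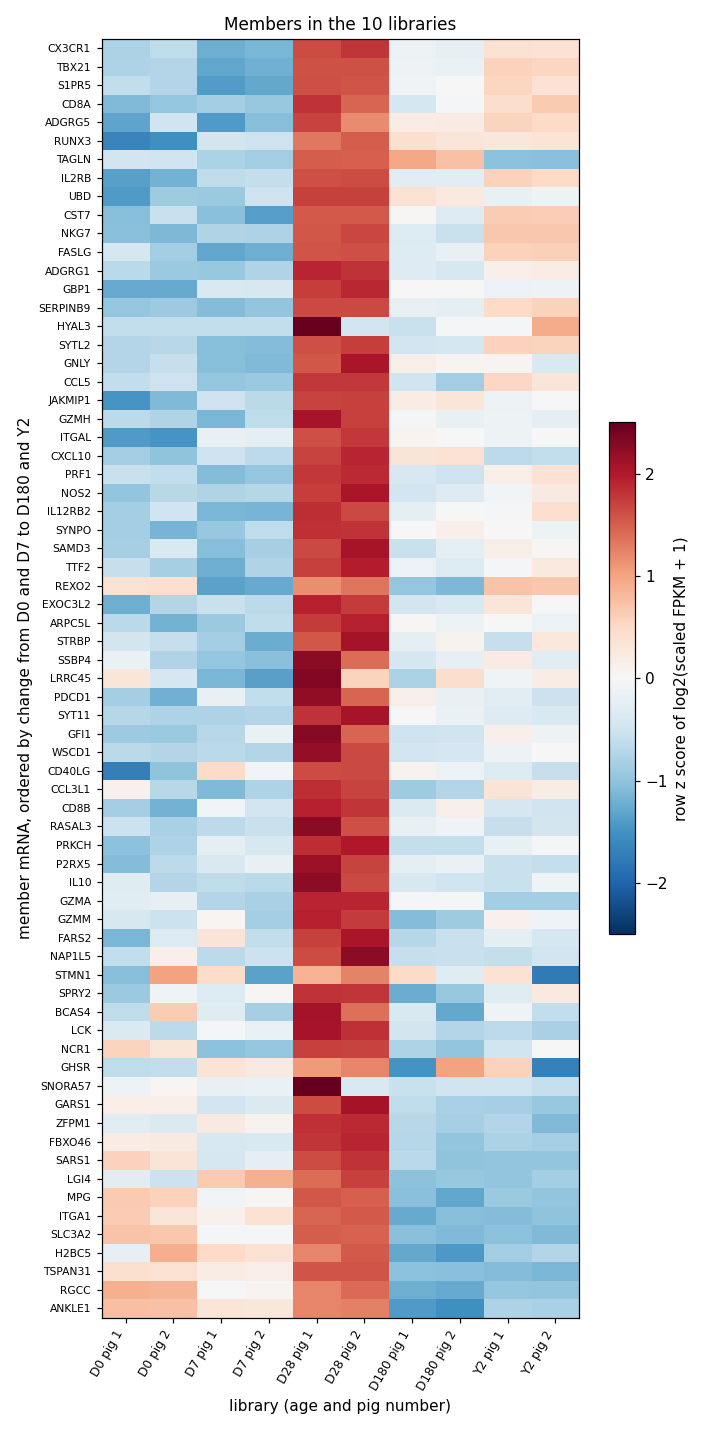
Rows are 69 members with a symbol, ordered by their change from D0 and D7 to D180 and Y2, and columns are the 10 libraries. Colour is the level of a row, log2(scaled FPKM + 1), as its distance from the row mean in standard deviations: the 2 D28 columns are red in nearly every row, the upper rows are blue at D0 and D7, and the lowest rows are blue at D180 and Y2. HYAL3 and SNORA57 are deep red in 1 D28 pig only.

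The highest score of a member with a symbol belonged to GZMA, granzyme A, a granule protease. Its scaled FPKM was 4.0 and 4.20 at D0, 2.55 and 2.36 at D7, 23.5 and 23.7 at D28, 4.87 and 4.94 at D180, and 2.24 in both Y2 pigs. Both D28 pigs stood far above all the others, and the D28 mean of 23.6 ± 0.163 (SD, n = 2) was 4.80 times that of D180 and 9.61 times that of D7. A second row that carries the symbol GZMA stayed below 1 in every library, and reads of such near copies can be divided between rows, so the level of each is uncertain. GZMH, granzyme H, another granule protease, had 1.65 and 1.5 at D0, 0.986 and 1.69 at D7, 12.8 and 10.2 at D28, 2.83 and 2.55 at D180 and 2.69 and 2.48 at Y2. The D28 pigs again lay apart from the rest, at 4.27 times the D180 mean.

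PRF1, perforin, which opens the target membrane, measured 2.0 and 1.92 scaled FPKM at D0, 1.36 and 1.5 at D7, 7.85 and 8.21 at D28, 2.24 and 2.06 at D180 and 3.16 and 3.61 at Y2. GNLY, granulysin, a membrane-damaging granule peptide, measured 12.5 and 13.6, then 10.4 and 10.1, then 42.7 and 55.6 at D28, then 20.3 and 19.4, and 19.5 and 15.1 at Y2. NKG7, a protein of the granule membrane, measured 9.60 and 9.21, then 11.6 and 11.4, then 44.6 and 47.7 at D28, then 14.8 and 13, and 26.8 and 27.0 at Y2. For all 3 the D28 pigs were highest and did not overlap another age, PRF1 and NKG7 had Y2 next, and GNLY had D180 next. In deposited FPKM, GNLY was higher at D180 than at D28, with a D28 mean 0.827 times that of D180.

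Other members of the same machinery were also highest at D28, as the selection requires. GZMM, granzyme M, reached 5.51 and 5.02 scaled FPKM at D28, and FASLG, the ligand of the Fas death receptor, reached 6.15 and 6.29. CST7, a protease inhibitor of cytotoxic cells, reached 15.2 in both D28 pigs, and SERPINB9, which protects such cells from granzyme B, reached 13.3 in both. Across these 9 granule and killing genes the D28 mean was 1.60 to 4.80 times the next age, which was Y2 in 6 and D180 in 3, and 3.41 to 9.61 times the D7 mean. In deposited FPKM, 6 of the 9 were highest at D28, and GNLY, CST7 and SERPINB9 were highest at D180.

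**Figure D3:**
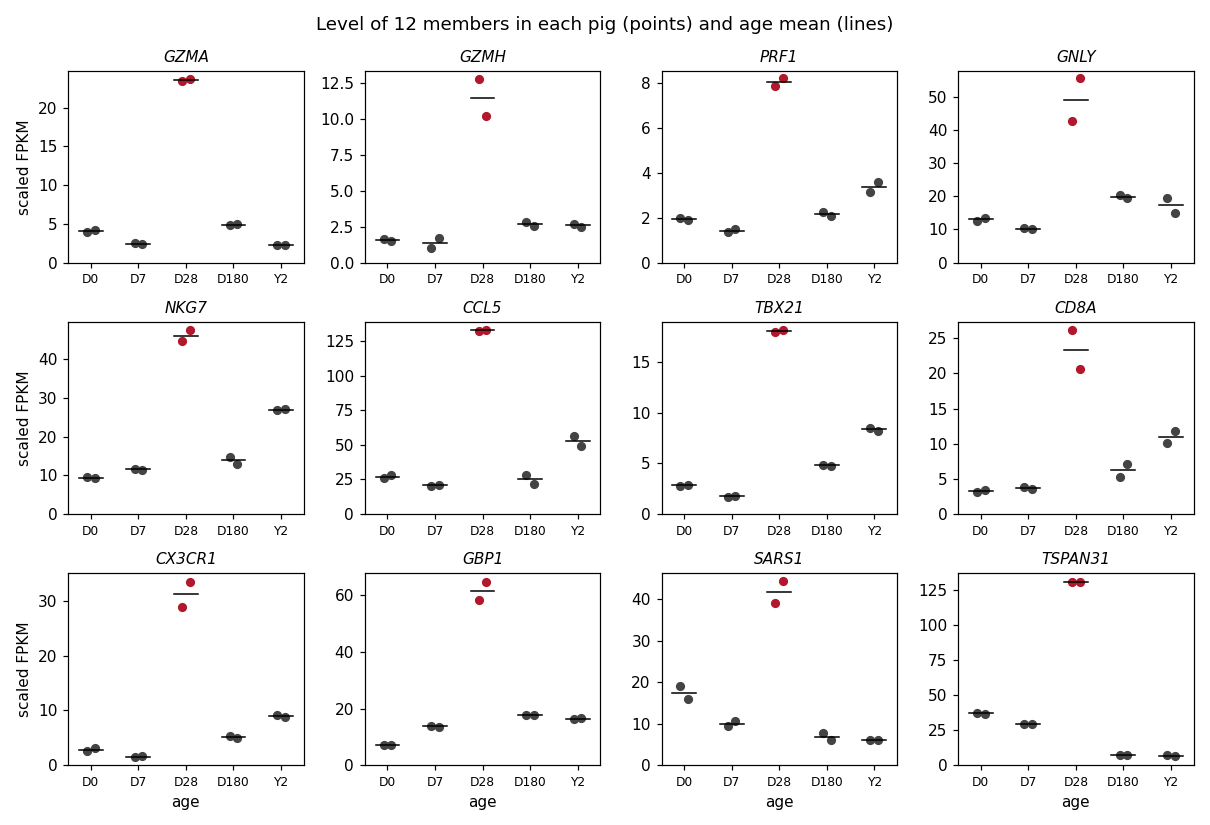
Scaled FPKM of 12 members in each of the 10 libraries, by age on the horizontal axis, with each vertical axis starting at 0. Points are pigs (D28 in red) and lines are the means of 2 pigs: the D28 points stand above all others in each panel, NKG7, CCL5, TBX21, CD8A and CX3CR1 have Y2 next, and SARS1 and TSPAN31 have D0 next.

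TBX21 had 2.80 and 2.89 scaled FPKM at D0, 1.66 and 1.81 at D7, 18.0 and 18.1 at D28, 4.87 and 4.76 at D180 and 8.5 and 8.21 at Y2. The pigs of an age were close to each other and no ages overlapped, with D28 at 10.4 times D7 and 2.16 times Y2. RUNX3, a transcription factor of the CD8 T cell lineage, had a smaller step, from 3.32 and 3.18 at D7 to 8.56 and 9.45 at D28, and then 5.34 and 5.07 at D180. GFI1, a transcriptional repressor in lymphoid and myeloid cells, had 5.11 and 3.65 at D28. RUNX3 was highest at D180 in deposited FPKM, with a D28 mean 0.578 times that of D180.

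Among the receptors, CX3CR1, which binds the chemokine fractalkine and is carried by monocytes as well, had 2.56 and 3.14 scaled FPKM at D0, 1.44 and 1.63 at D7, 28.9 and 33.4 at D28, 5.34 and 4.97 at D180 and 9.10 and 8.83 at Y2. Its D28 mean was 20.3 times that of D7 and 3.47 times that of Y2, and no ages overlapped. S1PR5, a sphingosine phosphate receptor that lets NK cells leave bone marrow and lymph nodes, had 2.48 and 2.2, then 1.06 and 1.247, then 14.3 and 13.8 at D28, then 3.95 and 4.27, and 6.44 and 5.59 at Y2. ADGRG1, an adhesion receptor of cytotoxic lymphocytes, had 7.39 and 5.96, then 5.84 and 6.84, then 50.9 and 47.1 at D28, then 9.74 and 9.09, and 13.6 and 14.4 at Y2. CX3CR1 and S1PR5 were lowest at D7, whereas the D0 and D7 pigs of ADGRG1 overlapped.

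CD8A, a chain of the CD8 co-receptor, had 3.09 and 3.48 scaled FPKM at D0, 3.82 and 3.55 at D7, 26.2 and 20.6 at D28, 5.30 and 7.14 at D180 and 10.2 and 11.8 at Y2. CD8B, the other chain, had 1.52 and 1.32, then 2.08 and 1.77, then 4.14 and 3.94 at D28, then 1.87 and 2.26, and 1.82 and 1.76 at Y2. Both chains were highest in both D28 pigs, but the D28 mean over D7 was 6.35-fold for CD8A and 2.10-fold for CD8B, and this difference between the chains was not tested. LCK, the kinase that starts T cell receptor signalling, had 12.2 and 11.13, then 13.5 and 13, then 26.1 and 24.2 at D28, then 11.8 and 10.8, and 11.13 and 10.5 at Y2, so the D28 pigs stood above the other 4 ages, which lay between 10.5 and 13.5. LCK and CD8B were highest at D180 in deposited FPKM, with D28 means 0.743 and 0.653 times those of D180. NCR1, an activating receptor of NK cells, had 1.42 and 1.2, then 0.326 and 0.351, then 2.75 and 2.72 at D28, then 0.463 and 0.341, and 0.614 and 0.953 at Y2.

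IL2RB, a chain of the interleukin 2 and interleukin 15 receptors, went from 6.71 and 6.85 scaled FPKM at D7 to 26.6 and 26.9 at D28, and had 8.45 and 8.40 at D180. ITGAL, the integrin chain that holds T cells to their targets, had 8.84 and 8.59, then 15.8 and 15.5, then 35.8 and 38.3 at D28, then 17.8 and 17.2, and 16.2 and 17.1 at Y2. ITGAL was lowest in the newborn pigs and at D28 stood above all other libraries. Its D28 mean in deposited FPKM was only 0.707 times that of D180.

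Chemokine genes were members too. CCL5, a chemokine stored by cytotoxic T and NK cells, had 26.1 and 27.9 scaled FPKM at D0, 20.4 and 20.9 at D7, 132 and 133 at D28, 28.4 and 21.8 at D180 and 56.7 and 49.3 at Y2. CCL3L1, a related chemokine, had 1.45 and 0.946, then 0.725 and 0.904, then 3.08 and 2.91 at D28, then 0.834 and 0.924, and 1.63 and 1.52 at Y2. Both were highest in the D28 pigs with the Y2 pigs next, although CCL3L1 at D0 reached close to its Y2 level. CCL3L1 belongs to a family of near-identical copies, and its level is uncertain for that reason.

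Genes known as targets of interferon gamma formed a further group. GBP1, a guanylate-binding protein, had 7.26 and 7.34 scaled FPKM at D0, 13.8 and 13.7 at D7, 58.5 and 64.9 at D28, 17.9 in both D180 pigs and 16.4 and 16.6 at Y2. UBD, a ubiquitin-like modifier, had 8.19 and 11.5, then 11.2 and 14.6, then 57.2 in both D28 pigs, then 25.5 and 23.6, and 17.9 and 18.7 at Y2. CXCL10, a chemokine that draws T cells, had 0.103 and 0.0241, then 0.339 and 0.243, then 3.54 and 4.08 at D28, then 1.13 and 1.21, and 0.245 and 0.271 at Y2. In these 3 the D28 pigs were highest and the D180 pigs came next. For UBD that order turned in deposited FPKM, with a D28 mean 0.779 times that of D180.

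NOS2, the inducible nitric oxide synthase, had 0.289 and 0.492 scaled FPKM at D0, 0.450 and 0.473 at D7, 3.88 and 4.68 at D28, 0.660 and 0.784 at D180 and 1.02 and 1.33 at Y2. IL10, an interleukin that restrains inflammation, had 0.536 and 0.392, then 0.421 and 0.413, then 1.81 and 1.44 at D28, then 0.506 and 0.471, and 0.451 and 0.610 at Y2. Both were low genes whose D28 pigs stood apart, and IL10 lay between 0.392 and 0.610 at the other ages. The mean D28 level of PDCD1, an inhibitory receptor of activated T cells, was 2.47 ± 0.614 (SD, n = 2), above 0.878 ± 0.146 at D180. Its D28 mean in deposited FPKM was 0.947 times that of D180.

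A separate group handles amino acids. SARS1, the seryl-tRNA synthetase, had 19.1 and 15.9 scaled FPKM at D0, 9.38 and 10.7 at D7, 39.1 and 44.3 at D28, 7.72 and 5.98 at D180 and 6.09 and 6.16 at Y2. FARS2, the mitochondrial phenylalanyl-tRNA synthetase, had 0.283 and 1.03, then 1.97 and 0.742, then 5.51 and 6.87 at D28, then 0.650 and 0.797, and 1.14 and 0.917 at Y2. GARS1, the glycyl-tRNA synthetase, had 6.20 and 7.53 at D28 and its next level at D0, 3.09 and 3.10, and SLC3A2, a chain of amino acid transporters, had 26.4 and 25.9 at D28 and 14.2 and 13.9 at D0. For SARS1, GARS1 and SLC3A2 the newborn pigs came next after D28 and the late pigs were lowest, and the pigs of FARS2 at D0 and D7 differed widely. All 4 were highest at D28 in deposited FPKM as well.

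The widest differences between the first and the late ages were seen in members outside the lymphocyte programme. TSPAN31, a tetraspanin membrane protein, had 37.5 and 36.5 scaled FPKM at D0, 29.6 and 29.3 at D7, 131 and 130.4 at D28, 7.61 and 7.56 at D180 and 7.20 and 6.61 at Y2. RGCC had 36.4 and 35.5, then 15.2 and 16.5, then 50.6 and 60.6 at D28, then 4.31 and 4.11, and 5.75 and 5.53 at Y2. ANKLE1, an endonuclease of blood-forming cells, had 11.5 and 11.2, then 7.22 and 6.96, then 18.5 and 19.1 at D28, then 0.609 and 0.430, and 1.96 and 1.84 at Y2. In all 3 the D28 pigs were highest, and every D0 and D7 pig lay above every D180 and Y2 pig.

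H2BC5, a histone H2B gene, had 16.1 and 41.6 scaled FPKM at D0, 29.2 and 26.2 at D7, 53.1 and 68.8 at D28, 6.23 and 5.39 at D180 and 9.08 and 10.3 at Y2. FBXO46, an F-box protein, had 4.01 and 4.06, then 2.82 and 2.83, then 9.5 and 10 at D28, then 2.30 and 1.89, and 2.19 and 2.11 at Y2. LGI4, a secreted protein known from peripheral nerve, had 1.08 and 0.760, then 2.57 and 3.10, then 4.55 and 5.69 at D28, then 0.320 and 0.395, and 0.356 and 0.475 at Y2. The D0 pigs of H2BC5 differed by more than those of the other 2 genes, and in LGI4 the D7 pigs came next after D28. The most abundant member, which has no symbol, had 937 and 1354 at D28, 378 and 544 at D0 and 46.9 and 37.7 at D180.

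Beside these stand the values of the erythroid list, whose summed level was 801004 to 828229 scaled FPKM at D7, 337752 to 352158 at D28 and 148613 to 178391 at Y2. Its total was therefore highest at D0 and lower at D28 than at D7, and 1 of its 12 genes had its highest age mean at D28. EPB42, a protein of the red cell membrane, had 112 and 111 scaled FPKM at D0, 54.4 and 52.3 at D7, 87.5 and 98.5 at D28 and 2.67 and 2.43 at D180. The part of red cell RNA in the course of TSPAN31, RGCC and ANKLE1 was not tested.

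REXO2, a nuclease that degrades short RNA, had 102.2 and 107 scaled FPKM at D0, 21.4 and 23.2 at D7, 209 and 244 at D28, 29.9 and 26.2 at D180 and 138 and 134 at Y2. Its level thus alternated between high and low from each age to the next. TAGLN, an actin-binding protein of smooth muscle, had 1.14 and 1.07, then 0.515 and 0.396, then 17.8 and 17.3 at D28, then 9.31 and 6.89, and 0.167 and 0.147 at Y2. The D28 and D180 pigs of TAGLN lay above all others, and in deposited FPKM its D180 mean was the higher. SAMD3, found in NK cells, had 0.704 and 1.07, then 0.535 and 0.70, then 3.94 and 4.92 at D28, then 0.921 and 1.18, and 1.60 and 1.47 at Y2.

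The highest score of all was that of ENSSSCG00000031502, which has no symbol. It had 6.40 and 5.90 scaled FPKM at D28 and 0.580 and 0.413 at D0, and was listed at 0 in the other 6 libraries. Over all members the D28 mean ran from 1.00 to 1146 scaled FPKM, with 4 members above 100 and 38 under 5. Their median level at D28 was 6.83, against 2.04 and 2.09 at D0 and D7 and 2.23 and 2.2 at D180 and Y2, while the median over all mRNAs lay between 1.88 and 1.92 at every age.

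The selection did not fix how the members changed between ages other than D28, and 3 such contrasts were tested with limma over all 12354 mRNAs, with 2 pigs per age and a call at an adjusted p of at most 0.05. From the first ages (D0 and D7) to the late ages (D180 and Y2), 44 members were higher late, 20 were lower late and 36 were not called. Over all mRNAs 28.2% were called higher and 28.6% lower, and the median log2 change was 0.19 in the members and 0.03 in all mRNAs. The lower share of members was thus under that of the table, and the higher share was above it. With the fold limit of the study as well, a log2 change of at least 1.5, 0 members were higher (also 0 at an unadjusted p under 0.05) and 5 lower, against 0.308% and 4.89% of all mRNAs. Here and below that limit was set on log2(scaled FPKM + 1), which understates changes of low genes. The count of 0 holds for that scale only and is not the fold change of the study.

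On the log2(scaled FPKM + 1) scale, the members called higher late were led by CX3CR1, with a log2 change of 1.33 (SE 0.070, adjusted p = 7.43e-07), followed by TBX21 at 1.18 (SE 0.043, adjusted p = 7.64e-08) and S1PR5 at 1.16 (SE 0.062, adjusted p = 8.49e-07). The order depends on that scale. By the ratio of late to early scaled means, several members called higher late stood above CX3CR1 at 3.22. They were SYT11 at 6.07, TAGLN at 5.29, CXCL10 at 4.02, SYNPO at 3.61 and WSCD1 at 3.36. CD8A rose by 1.05 (adjusted p = 4.88e-05), NKG7 by 0.84, PRF1 by 0.47 and CCL5 by 0.60. The interferon gamma targets GBP1, UBD and NOS2 rose by 0.72, 0.87 and 0.44. Of the 25 members with granule, receptor, signalling or transcription factor roles in T and NK cells, 17 were called higher late, 2 lower (LCK and ITGA1, an integrin chain) and 6 were not called, GZMA among them at 0.06. The groups were formed after the values were seen, so these counts are a description.

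Among members with a symbol, those called lower late were led by ANKLE1, which fell by 2.25 on the log2 scale (SE 0.052, adjusted p = 5.51e-09), RGCC, which fell by 2.08 (SE 0.063, adjusted p = 2.36e-08), and TSPAN31, which fell by 2.05 (SE 0.042, adjusted p = 2.87e-09). ENSSSCG00000000207, which has no symbol and is named here after its values were seen, fell further, by 2.43 (SE 0.17, adjusted p = 4.68e-06). H2BC5 fell by 1.71, SLC3A2 by 1.48, LGI4 by 0.97, SARS1 by 0.93, FBXO46 by 0.49 and LCK by 0.15. The 44 members higher late had median levels of 2.39, 2.76, 11.3, 4.50 and 4.59 scaled FPKM from D0 to Y2, and the 20 lower late had 5.16, 5.42, 10.7, 2.13 and 2.03. The scaling matters for this contrast: with deposited FPKM the median of all mRNAs moved up by 1.28 and 85 members were called higher and 2 lower, against 92.8% and 3.52% of all mRNAs. With the 10 most abundant mRNAs removed it moved up by 0.74 and the counts were 76 and 9, against 83.8% and 7.94%. Under both the higher share of members was below that of the table, the opposite of the order found with scaled FPKM. The changes of SARS1, FBXO46 and LCK were positive under both of those scalings, and that of H2BC5 was positive with deposited FPKM.

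**Figure D4:**
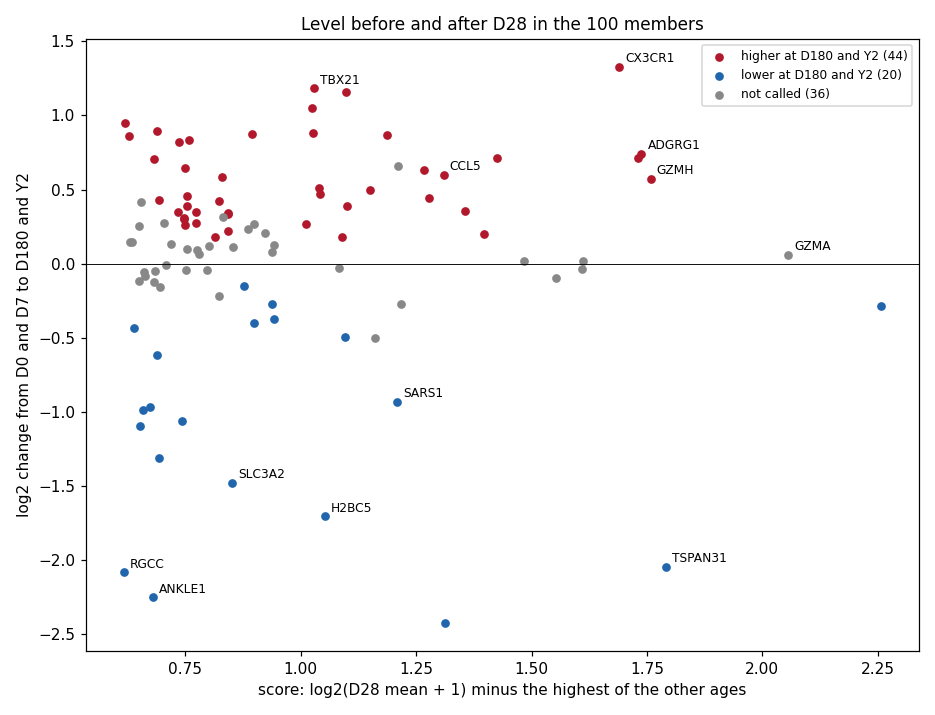
Each point is 1 of the 100 members, with the D28 score that chose it on the horizontal axis and the log2 change from D0 and D7 to D180 and Y2 on the vertical axis. Red points (44) were called higher late, blue points (20) lower late and grey points (36) were not called: CX3CR1 and TBX21 lie at the top, and ANKLE1, RGCC and TSPAN31 near the bottom.

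Within the first week, from D0 to D7, 21 members were called higher and 23 lower, against 17.8% and 20.1% of all mRNAs, so the shares were close to those of the table. GBP1 rose by 0.83 (SE 0.064, adjusted p = 3.21e-05), ITGAL by 0.78 (SE 0.062, adjusted p = 3.82e-05) and LGI4 by 1.00 (SE 0.12, adjusted p = 0.000421). REXO2 fell by 2.18 (SE 0.096, adjusted p = 2.28e-06), RGCC by 1.13 and NCR1 by 0.78. The cytotoxic genes did not move together before D28: NKG7, IL2RB and RUNX3 rose, by 0.27, 0.54 and 0.72, while GZMA, S1PR5, CX3CR1, TBX21 and PRF1 fell, by 0.56, 0.63, 0.60, 0.49 and 0.28, and CCL5 fell by 0.37, but with the 10 most abundant mRNAs removed the changes of PRF1, CCL5 and TSPAN31 were positive. That scaling gave 31 members higher and 6 lower, against 38.2% and 6.25% of all mRNAs, and deposited FPKM gave 22 and 11, against 18.5% and 8.91%. With the fold limit, 2 members were higher and 1 lower, against 0.575% and 0.939% of all mRNAs.

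From D180 to Y2, 20 members were called higher and 5 lower, against 7.47% and 3.95% of all mRNAs. REXO2 rose by 2.24 (SE 0.096, adjusted p = 6.87e-06), CCL5 by 1.06 (SE 0.12, adjusted p = 0.000789) and ANKLE1 by 0.94 (SE 0.074, adjusted p = 0.000125), and NKG7, CD8A, TBX21, CX3CR1 and PRF1 rose by 0.91, 0.74, 0.69, 0.69 and 0.48. TAGLN fell by 2.96 (SE 0.12, adjusted p = 6.3e-06), GZMA by 0.87 (SE 0.062, adjusted p = 7.32e-05) and CXCL10 by 0.79 (SE 0.083, adjusted p = 0.000576). GZMA thus fell where 5 of the 9 granule and killing genes rose. With deposited FPKM, 2 members were higher and 61 lower, against 2.49% and 84.6% of all mRNAs, and the changes of CD8A, TBX21, CX3CR1 and PRF1 were negative, with the median of all mRNAs moved by -0.65. With the 10 most abundant mRNAs removed the counts were 19 and 22, against 6.21% and 16.9%. Fewer members were called higher without D180 replicate 1, D180 replicate 2 or Y2 replicate 2, and fewer were called lower when any of the 4 pigs was left out. Such a fit holds 1 pig at an age, and the share of all mRNAs called in it is not given. With the fold limit, 1 was higher and 1 lower, against 0.445% and 0.0809% of all mRNAs.

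To see how far other genes of the blood cell types moved with the members, 15 lists of marker and pathway genes were counted with the members left out, which leaves 218 of 233 measured genes. From D7 to D28, 18.4% of all mRNAs were called higher and 22.8% lower, and from D28 to D180 14.4% higher and 18% lower. Of the 17 T cell genes outside the 100, 11 were higher at D28 than at D7 and 2 lower, CCR7 of naive cells among them, and from D28 to D180 3 were higher and 6 lower. CD3E, a chain of the T cell receptor complex, had 16.4 and 16.6 scaled FPKM at D7 and 30.7 and 33.7 at D28, a rise of 0.92 on the log2 scale (adjusted p = 2.31e-05). The summed level of these 17 genes was 237 to 241 at D7, 259 to 266 at D28 and 246 to 247 at D180.

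Of the 10 rows of the gamma delta T and NK cell list outside the 100, 6 were higher at D28 than at D7 and 1, KIT, lower, and from D28 to D180 2 were higher and 3 lower. KLRK1, the activating receptor NKG2D, had 1.21 and 1.35 scaled FPKM at D7, 6.97 and 7.35 at D28 and 2.31 and 2.40 at D180, a rise of 1.84 and then a fall of 1.28 on the log2 scale (adjusted p = 4.4e-06 and 3.14e-05). The summed level of these 10 rows was 15.3 to 15.5 at D7, 28.0 to 30.5 at D28 and 34.8 to 36.1 at D180. SOX13, BLK and GATA3 made up most of the D180 sum, with means of 8.62, 11.2 and 9.68, and 6 of the 10 rows had their highest age mean at D28. The part of T and NK cell number in the members' levels was not tested.

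The other lists did not all go one way from D7 to D28. The B cell, antigen presentation, and heat shock and protein folding lists rose as the T and NK cell lists did. CX3CR1 was the member on the monocyte and dendritic cell list. None of the other 10 genes of that list was called higher by limma at D28 than at D7 (0 at an unadjusted p under 0.05 as well) and 6 were lower, with CD14, a receptor of monocytes, at 18.1 in both D7 pigs and at 2.02 and 2.06 at D28. Of 10 neutrophil genes 8 were lower and 1, ARG1, higher, and of 12 platelet genes 11 were lower. Of 18 B cell genes 10 were higher and 1 lower, and JCHAIN, which joins secreted immunoglobulins, rose by 0.97 (adjusted p = 0.0418). Of 14 antigen presentation genes 10 were higher at D28 than at D7 and 1, CD86, lower.

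The interferon-stimulated list had 2 members, GBP1 and CXCL10, whose high level at D28 is set by the selection. Of its other 25 genes, 16 were lower at D28 than at D7 and 1, GBP2, was higher. IFIT2, an antiviral protein induced by type I interferon, had 28.7 and 28.0 scaled FPKM at D7, 7.36 and 7.30 at D28 and 30.6 and 29.1 at D180, and fell by 1.82 (adjusted p = 2.53e-07) before it rose by 1.89 (adjusted p = 7.53e-08). MX2, also antiviral, fell by 1.66. IFIT2 and MX2 were thus lower at D28 than at D7, and their contrast with GBP1 and CXCL10 follows in part from how the members were chosen. Of 25 cell cycle genes, none of them a member, 5 were higher and 10 lower at D28 than at D7, and BIRC5, a mitotic survival protein, fell by 2.2.

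Of the remaining lists from D7 to D28, limma called 0 of the 9 eosinophil, basophil and mast cell genes higher and 4 lower, 0 of 13 inflammatory genes higher and 6 lower, and 0 of 9 complement and Fc genes higher and 6 lower. At an unadjusted p under 0.05 the counts higher were 1, 0 and 0. Of 19 immediate early genes 4 were higher and 7 lower, of 16 heat shock and protein folding genes 6 were higher and 0 lower (0 at an unadjusted p under 0.05), and of 12 erythroid genes 2, EPB42 and KLF1, were higher and 6 lower. Genes singled out here beside the rule were named after their values were seen. Over the 218 genes the counts were 55 higher and 85 lower from D7 to D28 and 68 higher and 57 lower from D28 to D180. With deposited FPKM they were 120 and 41, then 189 and 15, and with the 10 most abundant mRNAs removed 94 and 63, then 136 and 23.

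**Figure D5:**
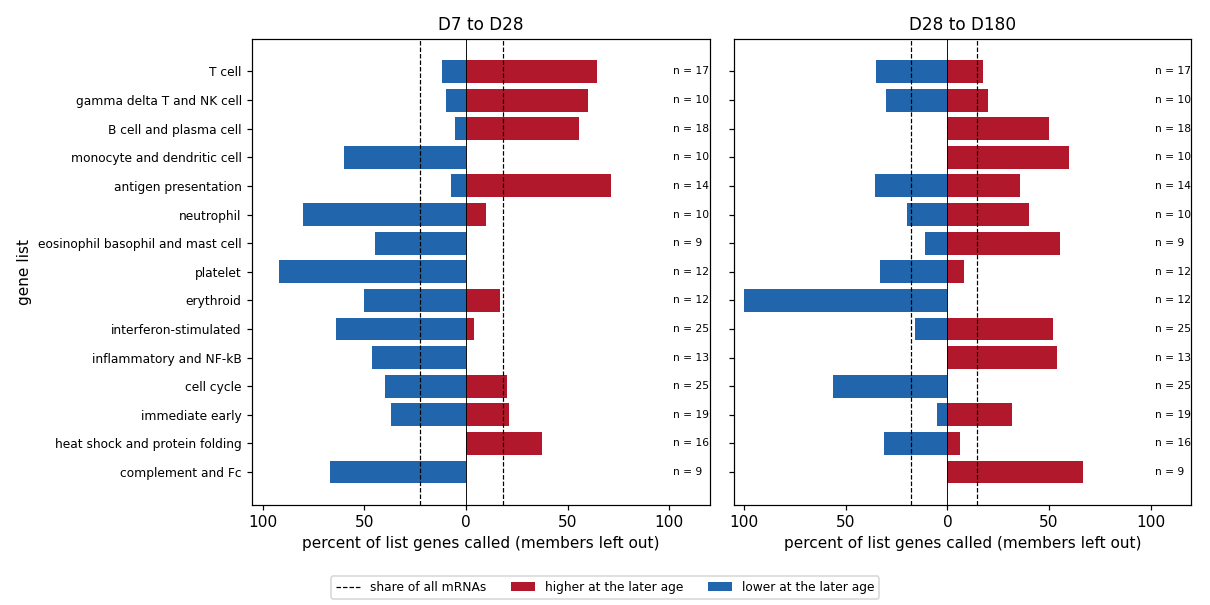
Bars give the percent of each list's genes, members left out, that limma called higher (red, to the right) or lower (blue, to the left) at the later age, from D7 to D28 and from D28 to D180. Dashed lines mark the shares over all mRNAs and n is the number of genes in the list. From D7 to D28 the red bars of the T cell, gamma delta T and NK cell, B cell, antigen presentation, and heat shock and protein folding lists pass the line. Those of the immediate early and cell cycle lists pass it narrowly. Furthest to the left in that panel reach the platelet, neutrophil, complement and Fc, interferon-stimulated, and monocyte and dendritic cell lists.

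The lncRNA table, which the selection did not use, held 9 transcripts whose span overlaps 8 of the 66 members with a RefSeq position on Sscrofa11.1. Of the 9, 5 had their highest age mean at D28, against 12.5% of all 5946 lncRNAs. Among the 5, TCONS_00110787 at GNLY had 0.456 and 0 scaled FPKM at D28 and 0 in every other library. TCONS_00110664 at CD8B had 0.322 and 0.718 at D28 and 0.335 and 0.343 at D7, so the count rests in part on low values of a single pig. The listed span of TCONS_00110787 runs only from 59068619 to 59068637, and that of TCONS_00076277 at ITGA1 from 32279212 to 32279290. Both are shorter than the authors' length limit for lncRNAs, so these spans may not be whole transcripts. TCONS_00031533 lies on the plus strand of chromosome 12 from 23983898 to 24004250 and overlaps TBX21, which runs from 23996415 to 24009353. Its scaled FPKM was 0 and 0.0923 at D0, 0 and 0.0823 at D7, 2.46 and 1.64 at D28, 1.31 and 1.3 at D180 and 1.01 and 0.975 at Y2, low in all 4 young pigs and highest in the D28 pigs. From D7 to D28 it rose by 1.54 on the log2 scale (SE 0.13, limma adjusted p = 0.00104).

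TCONS_00157215, on chromosome 6 from 145285682 to 145290539, overlaps IL12RB2, a chain of the interleukin 12 receptor. It had 0.181 and 0.101 scaled FPKM at D7 and 0.795 and 0.636 at D28, a rise of 0.59 (SE 0.077, limma adjusted p = 0.00602). These 2 of the 9 were called higher and 0 lower (3 and 2 at an unadjusted p under 0.05), against 1.92% and 4.42% of all lncRNAs. More were called higher without D28 replicate 2, a fit that rests on the other D28 pig. From D28 to D180 limma called 0 of the 9 either way (0 higher and 2 lower at an unadjusted p under 0.05), against 3.82% higher and 2.14% lower of all lncRNAs. Without D28 replicate 2 some were called lower. A transcript that shares the strand of the gene it overlaps may hold reads of that gene.

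Several members lie close together. CD8B and CD8A are neighbours on chromosome 3, from 57968358 to 57986450 and from 57999228 to 58029768, with 12778 bases between them. ADGRG5, an adhesion receptor, and ADGRG1 lie 34951 bases apart on chromosome 6, and CCL3L1 and CCL5 lie 159386 bases apart on chromosome 12. Within 1 Mb there were also EXOC3L2 and FBXO46, NKG7 and NCR1, and RUNX3 and STMN1, all on chromosome 6.

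Over the 10 libraries, the correlation of each member with the mean standardised course of the 100 had a median Pearson r of 0.884, with 43 members above 0.9 and 16 under 0.7. Among mRNAs with a symbol outside the 100, the courses most like it were those of SPAG5, with r of 0.988, CALHM6 with 0.968, RPA1 with 0.966, SEPTIN1 with 0.966 and SH2D1A with 0.962. SPAG5, a protein of the mitotic spindle, was listed at 0 in all libraries but those of D28, with 0.528 and 0.399 scaled FPKM there. The points share their libraries, scaling and the D28 pigs on which the members were chosen, so these values describe likeness only.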

How the data were processed

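The sample labels gave each age and pig number. The authors aligned reads with HISAT2 2.0.4 to Sscrofa11.1, quantified mRNAs with StringTie 1.3.3 and assembled lncRNAs with the help of Cufflinks 2.2.1. They deposited FPKM for 12354 mRNAs above 0.5 FPKM and 5946 lncRNAs above 0.1 FPKM in at least 1 library. Depth behind a value is unknown, since FPKM holds no read counts, and the 2 pigs per age limit precision.

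Both tables were divided by median-of-ratios factors of the 11527 mRNAs above 0 in every library. Rows with a mean of 5000 FPKM or more (10) and 6 further identifiers were not ranked. Members and lists were chosen with earlier results of these data known. log2(scaled FPKM + 1) was fitted with limma 3.58.1 (R 4.3.3) over all 10 libraries, with the trend option, and p-values were adjusted by Benjamini-Hochberg over every row of a table. Changes of low genes are understated on this scale. limma was tested on simulated data. The fold limit of the study was kept as an alternative. Its methods give Cuffdiff, which needs reads, for lncRNAs and no tool for the mRNA test. Named were the 20 members with a symbol and the highest scores, the 5 most abundant, those on a list, the 3 that rose and fell most in each contrast, the members at the limit, up to 2 identifiers, up to 4 called genes per list and the 5 most alike. Symbols matched 9735 rows. Positions came from RefSeq on Sscrofa11.1. Sequence motifs were not analysed here. P-values rest on the spread between pigs of an age, pooled over all ages and moderated by the trend over all rows. Pigs with the same number at different ages were not the same animal. Other steps used Python 3.11.15, numpy 2.4.6, pandas 2.3.3 and matplotlib 3.10.9. A few genes are not reported here.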

Additional observations from a re-analysis of the deposited data

How the results depend on the processing

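Scaling had the widest effect. Of the 100 members, 34 were again among the 100 highest scores with deposited FPKM, 62 were highest at D28 and 50 had both D28 pigs above the rest, and 52 were again among the 100 with the 10 most abundant mRNAs removed. With deposited FPKM, 11 members were lower from D0 to D7, 2 higher and 61 lower from D180 to Y2, and 85 higher and 2 lower from the first to the late ages. With 10 mRNAs removed these were 6 lower, 22 lower, and 76 higher and 9 lower. The fold limit left 2 higher and 1 lower, 1 and 1, and 0 and 5 in the 3 contrasts. For the lists, deposited FPKM gave 120 higher and 41 lower at D28 and 189 and 15 at D180 (over all mRNAs 65.3%, 5.9%, 90.6% and 3.32%), removal gave 94 higher, then 136 and 23 (48%, 63.3% and 6.9%), the fold limit 1 and 21, then 7 and 13, and a fit of the compared ages alone 34 higher at D28. For the 9 lncRNAs, 1 was higher at D28 with the fold limit and 0 with the compared ages alone, 5 and 1 were higher at D180 under the 2 scalings, and 1 was lower with at least 1 FPKM in 2 libraries. Shares over all rows are not given for the lists under the fold limit or the compared ages, nor for the lncRNAs. Those counts are therefore no result about the lists or the lncRNAs. The cause of these shifts was not tested.

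With deposited FPKM the change from D180 to Y2 turned to -0.30 in ADGRG1, -0.084 in CX3CR1, -0.31 in S1PR5, -0.053 in CD8A, -0.20 in PRF1, -0.086 in TBX21, -0.034 in CCL3L1 and -0.43 in RGCC. From the first to the late ages it turned to 1.03 in SARS1, 1.10 in FBXO46, 1.84 in LCK and 0.31 in H2BC5, and with 10 mRNAs removed to 0.24, 0.46 and 1.04 in the first 3. That removal turned the change from D0 to D7 to 0.17 in TSPAN31, 0.11 in CCL5 and 0.025 in PRF1.

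With each pig left out in turn, 11 to 21 members were higher and 3 to 5 lower from D180 to Y2, 2 to 4 of the lncRNAs were higher at D28 and 0 to 2 lower at D180. With the pig number as a block, 45 members were higher and 20 lower late, 21 and 23 at D7 and 19 and 5 at Y2, and 3 of the 61 called changes of the 34 named members were lost. The numbers do not pair pigs, since each library came from a different pig. The correlations of the deviations of pigs with the same number lay between -0.093 and 0.061. With so few pigs per age they cannot show what else a shared number might mark. All 61 were kept with a pseudocount of 0.1, with a filter on low values and without the trend.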

Other observations

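The synthetases among the members led to a count over 19 measured aminoacyl-tRNA synthetases, on lists chosen after the values were seen and therefore not tested. FARS2, the mitochondrial synthetase, is a member but was not on the synthetase list. Of the 17 listed synthetases that are no members 6 had their highest age mean at D28 and 10 at D0, against 21.6% and 28.4% of all mRNAs. SARS1 and GARS1 were members, chosen for being highest at D28, and WARS1 lay just outside, with 5.30 scaled FPKM at D7, 8.70 at D28 and 5.37 at D180. KARS1, the lysyl-tRNA synthetase, had 88.9 at D0 and 31.7 at D28. Of 7 further genes known from the response to amino acid shortage, 2 were highest at D28, against 21.6% of all mRNAs, and 3 at D0, against 28.4%. In so few genes these counts are no result about the list. SLC7A11 of the same list had means of 11.7 at D0 and 1.42 at D28. ASNS, the asparagine synthetase, had a mean of 45.7 at D28, against 30.2 and 9.69 at D0 and D7 and 1.25 and 1.72 at D180 and Y2, and like SARS1 and SLC3A2 it was highest at D28 and next highest at D0.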
